A study of Rattus norvegicus with 9 samples.

Results

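The 10 genes described here encode metallothionein 2A (Mt2A) and 9 enzymes of antioxidant defence, most of them known targets of the transcription factor NRF2: Hmox1, Nqo1, Gclc, Gclm, Txnrd1, Srxn1, Sod2, Sod3 and Gpx3. These 10, and the pathway and marker lists used below, were chosen by symbol with earlier results of these data known. Counts of called genes among them are therefore descriptions. All 10 were found among the 14607 genes listed in at least 1 library. They passed the filter on low counts that left 11761 genes for testing. Their levels were measured by RNA-seq in primary cardiomyocytes from Sprague Dawley (SD) rats aged 1 to 2 days, of wild-type genotype, kept in culture. The cells were infected for 16 h with 1 of 3 lentiviruses and then cultured for 48 h in medium with serum. One group received a vector control (lenti-NC), one a virus carrying TCF7L2 (lenti-TCF7L2), and one a virus carrying a short hairpin RNA against it (lenti-shTCF7L2), with 3 libraries in each group. All groups, controls included, thus carried a lentivirus. The labels do not give the promoter of the insert, its species or the hairpin's sequence, and do not say that replicates came from separate cultures or litters, so the p-values measure only the spread between these libraries.

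NRF2, the product of Nfe2l2, is held at low levels by KEAP1, which hands it to a CUL3 ubiquitin ligase for degradation. Oxidants and electrophiles modify KEAP1, NRF2 then accumulates, pairs with small MAF proteins and binds antioxidant response elements near genes for glutathione synthesis, quinone reduction and heme breakdown, while BACH1 competes for the same sites. Metallothioneins are small cysteine-rich proteins that bind zinc and copper and scavenge radicals; the zinc-sensing factor MTF1 drives them through metal response elements. In the heart both systems are known for protection against ischemic and diabetic oxidative injury. TCF7L2 is a DNA-binding partner of beta-catenin in canonical Wnt signaling, and the comparisons ask how gene expression differs when its level is raised or lowered.

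The promoter sequences of the genes that led the differences, and of Gclm, a textbook NRF2 target, show which of these elements the letters near their starts hold. RefSeq (GRCr8) windows of 250 bases before the start were at hand for 8 of the 10 genes; Hmox1 and Sod3 were not among them. Each window was searched on both strands for the metal response element core (TGCACNC or TGCGCNC), the antioxidant response element core (TGACNNNGC) and the TCF/LEF motif (CTTTGAA or CTTTGAT). Capitals mark the metal response element cores in the metallothionein windows of Mt2A (chr19:10838709-10838958, minus strand) and its neighbour Mt1 (chr19:10832976-10833225, minus strand), and the antioxidant response element cores in Gclm (chr2:213031885-213032134, plus strand) and Sod2 (chr1:50050169-50050418, minus strand).
Mt2A: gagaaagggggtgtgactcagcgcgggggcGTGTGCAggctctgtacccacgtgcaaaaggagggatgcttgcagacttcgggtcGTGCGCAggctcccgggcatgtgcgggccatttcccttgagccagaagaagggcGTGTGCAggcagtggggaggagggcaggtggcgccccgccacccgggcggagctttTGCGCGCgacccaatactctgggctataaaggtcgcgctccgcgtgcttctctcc
Mt1: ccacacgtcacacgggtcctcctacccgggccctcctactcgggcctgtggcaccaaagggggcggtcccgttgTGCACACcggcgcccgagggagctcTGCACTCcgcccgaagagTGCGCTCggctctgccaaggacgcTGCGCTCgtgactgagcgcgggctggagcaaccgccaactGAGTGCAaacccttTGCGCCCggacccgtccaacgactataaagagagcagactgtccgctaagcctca
Gclm: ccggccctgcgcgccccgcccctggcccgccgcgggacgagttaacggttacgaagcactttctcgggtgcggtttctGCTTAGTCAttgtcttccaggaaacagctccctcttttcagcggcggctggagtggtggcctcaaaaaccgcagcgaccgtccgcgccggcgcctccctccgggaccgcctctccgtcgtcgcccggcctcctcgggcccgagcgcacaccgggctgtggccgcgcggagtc
Sod2: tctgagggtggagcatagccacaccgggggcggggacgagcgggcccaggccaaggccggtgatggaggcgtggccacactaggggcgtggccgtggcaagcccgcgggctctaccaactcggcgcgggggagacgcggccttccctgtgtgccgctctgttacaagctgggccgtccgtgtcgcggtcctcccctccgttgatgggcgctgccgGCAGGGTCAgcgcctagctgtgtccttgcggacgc
The Mt2A window held 4 metal response element cores and the Mt1 window 6, a motif found in 20.6% of the 33469 RefSeq windows of this length. The Gclm window also held 2 of them (TGCGCGC, 243 to 237 bases before the start, and GAGCGCA on the gene's strand, 32 to 26), left in lower case above. An antioxidant response element core, present in 10.1% of windows, was found once in each of Mt2A (TGACTCAGC, 237 to 229 bases before the start), Mt1 (TGACTGAGC, 101 to 93), Gclm (GCTTAGTCA on the gene's strand, 172 to 164) and Sod2 (GCAGGGTCA, 35 to 27), and in 1 of 2 windows of Txnrd1. The letters in Mt2A also contain the AP-1 motif TGACTCA, so the 2 motifs overlap there. The TCF/LEF motif, present in 7.58% of windows, occurred in 1 member, Txnrd1. The windows of Nqo1, Gclc, Srxn1 and Gpx3 held no match to any of these motifs. These matches describe letters and were not tested for binding.

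The libraries held 15085922 to 16478295 expected counts over 13294 to 13421 listed genes, so that 3 counts correspond to 0.182 to 0.199 CPM (counts scaled to a common library size, after TMM). Tcf7l2 had 595, 540 and 510 counts in lenti-NC, 2251, 3240 and 1434 in lenti-TCF7L2, and 388, 465 and 391 in lenti-shTCF7L2; it rose with lenti-TCF7L2 (log2 difference 1.97, SE 0.27, edgeR adjusted p = 8.46e-04). As the species of the insert is not given, these counts may or may not include its transcripts and do not measure the whole TCF7L2 level of a library. Its difference with lenti-shTCF7L2 was -0.43 (adjusted p = 0.511), or -0.43 with an adjusted p of 1.82e-04 when only the 6 libraries compared were fitted. All 8 cardiomyocyte markers were detected in every group, with a summed 41336 to 43345 CPM in lenti-NC, 18406 to 22212 in lenti-TCF7L2 and 38374 to 39841 in lenti-shTCF7L2. The 8 fibroblast markers summed to 43432 to 44821, 36221 to 53394 and 43648 to 45565 CPM, so the cultures held fibroblast transcripts as well. Single fibroblast markers moved more than this sum: 4 of 8 rose and 1 fell with lenti-TCF7L2 (median log2 difference 0.38), and 3 fell with lenti-shTCF7L2 (median -0.50). With lenti-TCF7L2, 7 of 8 cardiomyocyte markers fell, 7 of 8 endothelial markers rose (summed 70.2 to 89.6 CPM in lenti-NC and 132 to 204 in lenti-TCF7L2) and 5 of 7 tested macrophage markers rose (39.6 to 41.7 and 74.3 to 80.0); with lenti-shTCF7L2 these sums were 71.9 to 73.3 and 38.6 to 40.9. The 5 epicardial markers summed to 104.6 to 126 CPM in lenti-NC, 139 to 159 in lenti-TCF7L2 and 81.0 to 86.3 in lenti-shTCF7L2, with no overlap between groups; 2 rose with lenti-TCF7L2 and 1 fell with lenti-shTCF7L2. Smooth muscle markers summed to 7220 to 7298, 6519 to 7728 and 6922 to 7109 CPM in the same order, and erythroid markers stayed at or under 1.01, with 1 of 4 at 0 in lenti-TCF7L2. Markers said to rise or fall had an edgeR adjusted p under 0.05. Over all tested genes, 31.8% passed with lenti-TCF7L2 (18% higher, 13.8% lower) and 3.64% with lenti-shTCF7L2 (1.32% higher, 2.32% lower). In bulk libraries a change in the number of cells of a type and a change in RNA per cell cannot be told apart. The part of the marker shifts in the results below was not tested. The lenti-TCF7L2 libraries were the least alike: the lowest correlation within a group was 0.948 in lenti-TCF7L2 and 0.994 in the other groups. Among them, replicate 3 deviated most with gene length, as given below.

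Per length, the extracellular peroxidase gene Gpx3 and the mitochondrial dismutase gene Sod2 were the most abundant of the 10 in lenti-NC. Levels in FPKM, which corrects fragment counts for gene length and library size, were 455 ± 17.5 (SD, n = 3) for Gpx3, 218 ± 18.5 for Sod2, 119 ± 19.5 for Mt2A, 96.9 ± 3.13 for Sod3 and 63.6 ± 8.20 for Hmox1. Txnrd1 followed at 47.8 ± 1.01, Nqo1 at 22.5 ± 1.99, Gclc at 18.2 ± 0.167, Gclm at 12.9 ± 1.84 and Srxn1 at 7.11 ± 0.688. In that order the libraries of Mt2A (96.5 to 132 FPKM) and Sod3 (93.4 to 99.4) overlapped, and no other neighbouring pair did. Among all tested genes, Mt2A stood above 94.4% in lenti-NC, above 98.4% in lenti-TCF7L2 and above 91.0% in lenti-shTCF7L2. Its rank by mean FPKM went from 664 in lenti-NC to 192 in lenti-TCF7L2, where its libraries (323 to 786 FPKM) overlapped those of Gpx3 (508 to 678) and Sod2 (370.0 to 491). Srxn1 was the least abundant of the 10 in all 3 groups, with means of 7.11, 7.38 and 9.09 FPKM.

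**Figure D1:**
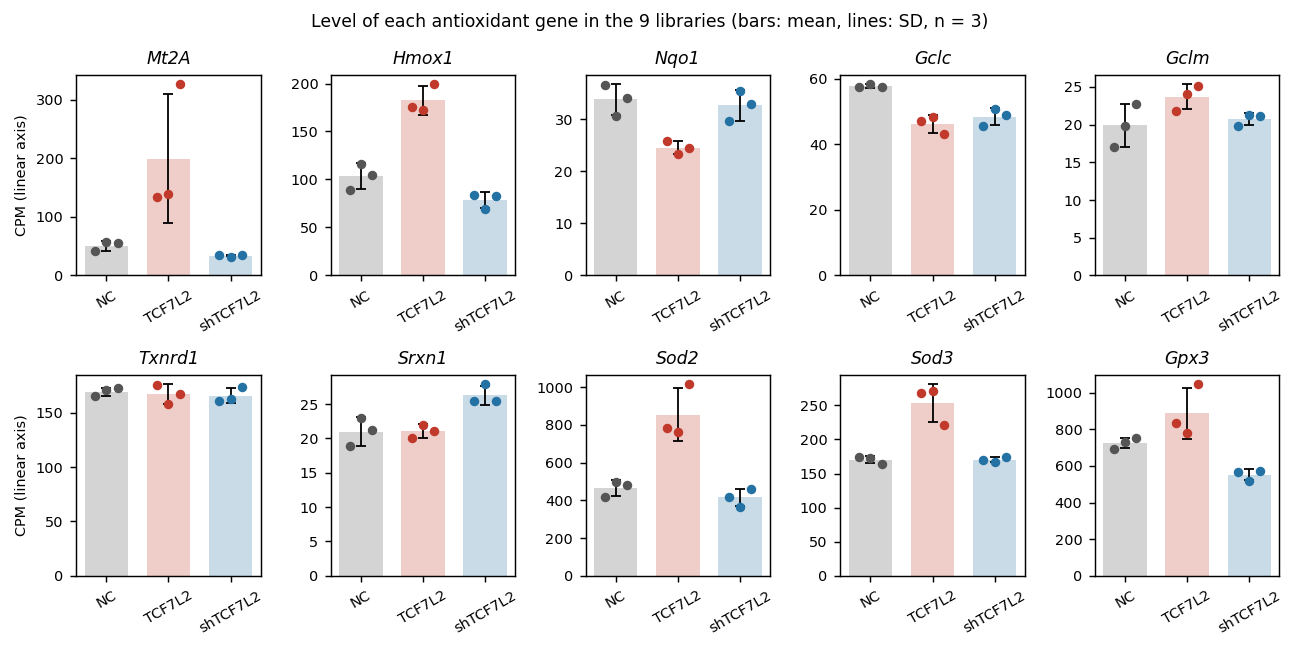
Level of each of the 10 genes in CPM (linear axis from 0) in the 9 libraries, with points for libraries, bars for the group mean and lines for the SD (n = 3). Mt2A reached 327 CPM in lenti-TCF7L2 replicate 3 against 41.3 to 56.7 in lenti-NC, while the 9 Txnrd1 values stayed between 158 and 176.

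With lenti-TCF7L2 the metallothionein, heme oxygenase and both superoxide dismutase genes rose, and the quinone reductase gene Nqo1 and the catalytic glutamate-cysteine ligase gene Gclc fell. Against lenti-NC, 4 of the 10 rose (Mt2A, Hmox1, Sod2, Sod3), 2 fell (Nqo1, Gclc) and 4 did not pass (Gclm, Txnrd1, Srxn1, Gpx3), by edgeR's quasi-likelihood test at an adjusted p under 0.05 over all tested genes. Over all genes 31.8% were called, 18% higher and 13.8% lower. The median log2 difference of the 10 was 0.27, beside 0.03 for all tested genes. The libraries of the 2 groups did not overlap for 5 of the 10 genes in the higher direction and 2 in the lower, where 46.8% of all tested genes did not overlap (24.9% higher, 22% lower). Omitting lenti-TCF7L2 replicate 3 kept these 6 calls and their directions, with 42.7% of all genes called, although the median was then 0.16.

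Mt2A (gene ID 689415, 449 bases) had the widest change. It gave 41.3, 56.7 and 54.8 CPM in lenti-NC, 134, 138 and 327 in lenti-TCF7L2, and 34.3, 32.2 and 35.4 in lenti-shTCF7L2. All 3 lenti-TCF7L2 libraries were above all others, replicate 3 was far above its own group, and the lenti-shTCF7L2 libraries were the lowest, with no overlap between groups. The group means were 50.9 ± 8.40, 199.6 ± 110.1 and 34.0 ± 1.64 CPM. Mt2A was 3.92-fold higher with lenti-TCF7L2 (log2 difference 1.97, SE 0.33, adjusted p = 0.00223), and 2.64-fold higher without replicate 3 (adjusted p = 2.50e-07). The library with the highest Mt2A was the lenti-TCF7L2 library with the lowest counted Tcf7l2, at 85.7 CPM beside 142 and 206 in the others.

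Mt1, the metallothionein gene whose promoter is also shown above, rose with Mt2A in lenti-TCF7L2. It gave 19.4, 24.1 and 22.7 CPM in lenti-NC, 44.4, 48.2 and 114 in lenti-TCF7L2, and 23.8, 17.2 and 20.6 in lenti-shTCF7L2. The lenti-TCF7L2 libraries again lay above all others, with the same library highest, while lenti-shTCF7L2 overlapped lenti-NC. Mt1 rose by 1.64 (SE 0.34, adjusted p = 0.00633), and by 1.05 without replicate 3. Per length, Mt2A exceeded Mt1 by a ratio of FPKM of 1.96 ± 0.130 in lenti-NC, 2.49 ± 0.0716 in lenti-TCF7L2 and 1.43 ± 0.186 in lenti-shTCF7L2 (SD, n = 3), and the 3 ranges of this ratio did not overlap. Metallothioneins are a multigene family of similar sequences, and reads may be split between them. Mt2A had a fractional expected count in 2 of 9 libraries, at most about 0.017% of the count away from a whole number. Srxn1 and Sod3 had fractional counts in all 9.

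Hmox1 (gene ID 24451), which encodes the inducible heme oxygenase that breaks heme down to biliverdin, iron and carbon monoxide, gave 89.5, 116 and 104.3 CPM in lenti-NC, 176, 172 and 199 in lenti-TCF7L2, and 83.5, 68.8 and 82.5 in lenti-shTCF7L2. The 3 groups did not overlap, and the order of groups was that of Mt2A. It was 1.76-fold higher with lenti-TCF7L2 (log2 difference 0.82, SE 0.12, adjusted p = 0.00113), and without replicate 3 the difference was 0.73.

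Nqo1 (gene ID 24314), the cytosolic quinone reductase widely used as an NRF2 reporter gene, went the other way. Its values were 36.5, 30.7 and 34.2 CPM in lenti-NC, 25.8, 23.4 and 24.4 in lenti-TCF7L2, and 29.6, 35.4 and 33.0 in lenti-shTCF7L2. Every lenti-TCF7L2 library was below every other library, and lenti-shTCF7L2 overlapped lenti-NC. The difference with lenti-TCF7L2 was -0.46 (SE 0.10, adjusted p = 0.00862), from a mean of 33.8 ± 2.96 to 24.5 ± 1.23 CPM. The ratio of Hmox1 to Nqo1 in FPKM was 2.86 ± 0.621 in lenti-NC, 6.87 ± 0.641 in lenti-TCF7L2 and 2.24 ± 0.411 in lenti-shTCF7L2, with the lenti-TCF7L2 libraries (6.28 to 7.55) above all others.

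The 2 subunits of glutamate-cysteine ligase, which catalyses the rate-limiting step of glutathione synthesis, differed from each other. Gclc (gene ID 25283), the catalytic subunit, gave 57.3, 58.3 and 57.4 CPM in lenti-NC, 47.0, 48.3 and 43.1 in lenti-TCF7L2, and 45.5, 50.8 and 48.8 in lenti-shTCF7L2. The lenti-NC libraries lay close together (SD 0.564) and above the 6 others. Gclc fell with lenti-TCF7L2 by 0.32 on the log2 scale (SE 0.07, adjusted p = 0.0112). Gclm (gene ID 29739), the modifier subunit, gave 17.1, 19.8 and 22.8 CPM in lenti-NC, 21.9, 24.1 and 25.2 in lenti-TCF7L2, and 19.9, 21.3 and 21.1 in lenti-shTCF7L2. Lenti-TCF7L2 and lenti-shTCF7L2 each overlapped lenti-NC, and the difference with lenti-TCF7L2 was 0.25 (95% interval -0.01 to 0.52, adjusted p = 0.127). The ratio of Gclm to Gclc in FPKM was 0.705 ± 0.102 in lenti-NC, 1.05 ± 0.124 in lenti-TCF7L2 and 0.878 ± 0.0193 in lenti-shTCF7L2, and the lowest lenti-TCF7L2 ratio (0.952) was above the highest of the other groups (0.892).

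Neither Txnrd1 nor Srxn1 was called in this comparison. Txnrd1 (gene ID 58819), cytosolic thioredoxin reductase, gave 165, 171 and 173 CPM in lenti-NC, 176, 158 and 167 in lenti-TCF7L2, and 161, 163 and 174 in lenti-shTCF7L2. These ranges lie on top of each other, and the 95% interval of the lenti-TCF7L2 difference, -0.17 to 0.13, leaves room for changes of that size. Srxn1 (gene ID 296271), sulfiredoxin, which repairs over-oxidised peroxiredoxins, gave 18.9, 22.9 and 21.2 CPM in lenti-NC, 20.0, 22.0 and 21.1 in lenti-TCF7L2, and 25.4, 27.9 and 25.5 in lenti-shTCF7L2. Lenti-TCF7L2 lay inside the lenti-NC range, with a 95% interval of -0.22 to 0.23, and lenti-shTCF7L2 lay above both groups. The sign of either small lenti-TCF7L2 difference changed with the scaling.

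Both superoxide dismutase genes rose. Sod2 (gene ID 24787), the mitochondrial manganese enzyme, gave 420.3, 496 and 479.7 CPM in lenti-NC, 785, 761 and 1015 in lenti-TCF7L2, and 418, 367 and 460.3 in lenti-shTCF7L2. Every lenti-TCF7L2 library was over the highest control, replicate 3 was the highest, and lenti-shTCF7L2 overlapped lenti-NC. Sod2 was 1.83-fold higher (log2 difference 0.88, SE 0.13, adjusted p = 0.00143). Sod3 (gene ID 25352), the secreted copper-zinc enzyme, gave 175, 172 and 164 CPM in lenti-NC, 268, 271 and 222 in lenti-TCF7L2, and 169, 167 and 175 in lenti-shTCF7L2. Here replicate 3 was the lowest of the lenti-TCF7L2 libraries, still above all others, and Sod3 was 1.49-fold higher (0.57, SE 0.08, adjusted p = 0.00125).

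Gpx3 (gene ID 64317), which encodes secreted glutathione peroxidase, gave 694, 728 and 751 CPM in lenti-NC, 836, 779 and 1045 in lenti-TCF7L2, and 566, 516 and 572 in lenti-shTCF7L2. The 3 groups did not overlap, in the order of Mt2A and Hmox1. The lenti-TCF7L2 difference of 0.29 (SE 0.11) did not pass (adjusted p = 0.0706). It passed in 3 of 21 other settings, with a difference of 0.37 without lenti-TCF7L2 replicate 2 (adjusted p = 0.0178). Without lenti-TCF7L2 replicate 3 the difference was 0.14 (adjusted p = 0.102).

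With lenti-shTCF7L2, none of the 10 genes passed against lenti-NC when all 9 libraries were fitted together, where 3.64% of all tested genes were called (1.32% higher, 2.32% lower). At an unadjusted p under 0.05 by edgeR there were 4 (Gpx3, Hmox1 and Gclc lower, Srxn1 higher), beside 16% of all tested genes, and DESeq2 called 1 (Gpx3), beside 5.54% of all tested genes. Fitted on the 6 libraries compared, 4 were lower (Mt2A, Hmox1, Gclc, Gpx3) and 1 higher (Srxn1), beside 28.5% of all genes called (13% higher, 15.5% lower). The same 5 passed in the 9-library model without lenti-TCF7L2 replicate 3, where 17.4% of all genes were called. The libraries did not overlap for 4 genes in the lower and 1 in the higher direction, where 40.9% of all tested genes did not overlap (21% lower, 19.9% higher). The median difference was -0.11, beside 0.01 for all genes. In the same comparison 6 of 8 fibroblast, 4 of 5 epicardial and 4 of 8 cardiomyocyte markers lay wholly below lenti-NC. Wholly above it lay 1 fibroblast marker, and no cardiomyocyte marker was called. The part of these markers in the differences was not tested.

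Mt2A shows how the 2 models differ. Its lenti-shTCF7L2 difference was -0.58 with an SE of 0.32 (adjusted p = 0.444) when the wide lenti-TCF7L2 group shared the estimate of spread, and -0.59 with an SE of 0.09 (adjusted p = 2.36e-05) when it did not. The size of the difference barely moved, and the 3 lenti-shTCF7L2 libraries were all below the lowest lenti-NC library. Hmox1 differed by -0.40 (adjusted p = 0.112, or 3.33e-04 in the 6-library fit), and Gpx3 by -0.39 (0.0993, or 7.01e-07). Gclc differed by -0.25 (0.114, or 0.00141) and Srxn1 by 0.32 (0.126, or 0.00408). For these 4 genes too the lenti-shTCF7L2 libraries lay wholly on 1 side of lenti-NC. Nqo1 (-0.05), Gclm (0.06), Txnrd1 (-0.03), Sod2 (-0.16) and Sod3 (-0.0012) overlapped lenti-NC and passed in neither fit; the 95% intervals in the 9-library fit were -0.28 to 0.18 for Nqo1 and -0.46 to 0.13 for Sod2. Mt1 differed by -0.11 (adjusted p = 0.946, or 0.472 in the 6-library fit).

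The comparisons with lenti-NC share its 3 libraries, so the values of each gene are set side by side without a test of their likeness. Mt2A differed by 1.97 with lenti-TCF7L2 and -0.58 with lenti-shTCF7L2, Hmox1 by 0.82 and -0.40, and Gpx3 by 0.29 and -0.39. Gclc differed by -0.32 and -0.25, lower than lenti-NC with either virus. Lenti-TCF7L2 was also compared directly with lenti-shTCF7L2, which reuses the same libraries. Here 5 of the 10 genes were higher with lenti-TCF7L2 and 2 lower, beside 33.1% of all tested genes (18.4% higher, 14.7% lower). The libraries did not overlap for 6 genes in the higher direction and 2 in the lower, beside 47.2% of all genes (24.1% higher, 23.2% lower). Mt2A was 5.88-fold higher (log2 difference 2.56, adjusted p = 5.33e-04), Hmox1 2.33-fold (1.22, adjusted p = 1.16e-04) and Sod2 2.06-fold (1.04). Sod3 (0.57) and Gpx3 (0.69, adjusted p = 0.00159) were the other 2. Nqo1 was lower by -0.41 (adjusted p = 0.0134, and 0.0552 without lenti-shTCF7L2 replicate 2) and Srxn1 by -0.32 (adjusted p = 0.0347). The Srxn1 call was lost in 8 of 21 other settings, among them the fit of the 6 libraries compared (adjusted p = 0.0627) and those without lenti-NC replicate 3, lenti-TCF7L2 replicate 1 or any single lenti-shTCF7L2 library (0.0587 to 0.114). Gclc differed by -0.07 between lenti-TCF7L2 and lenti-shTCF7L2 (95% interval -0.24 to 0.10), with overlapping libraries.

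**Figure D2:**
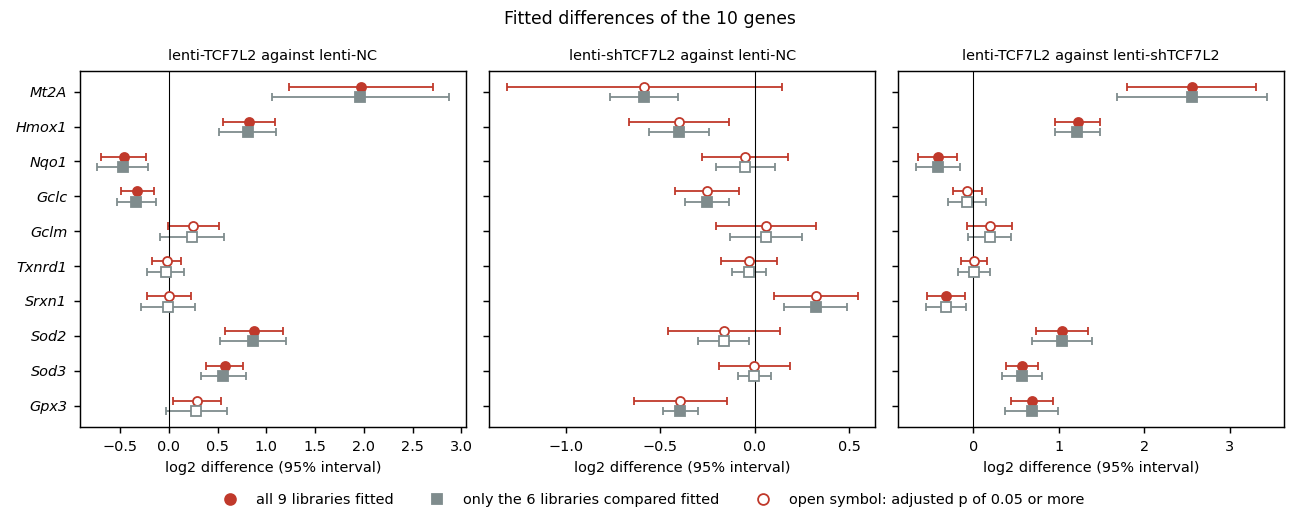
Fitted log2 difference of each gene with its 95% interval (horizontal axis, log2) in the 3 comparisons, from all 9 libraries (red circles) and from only the 6 libraries compared (grey squares); open symbols have an adjusted p of 0.05 or more. In the middle panel the Mt2A interval runs from -1.31 to 0.14 with 9 libraries and from -0.77 to -0.40 with 6, around nearly the same difference.

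The libraries differed by gene length, and Mt2A and Mt1 are among the shortest genes tested. In lenti-TCF7L2 replicate 3, the 141 tested genes of up to 500 bases had a median log2 deviation from the lenti-NC mean of 0.59, those of 1000 to 2000 bases 0.29, those of 2000 to 4000 bases -0.04 and those over 8000 bases -0.98. Replicate 1 ran from 0.21 to -0.34 and replicate 2 from -0.02 to -0.01 between the shortest and longest classes. At the length of Mt2A the trend over all genes was 0.15, -0.14 and 0.55 in lenti-TCF7L2 replicates 1 to 3, while Mt2A itself deviated by 1.41, 1.45 and 2.69. The metallothionein deviation was thus larger than the trend in each library. With the trend removed, Mt2A rose by 1.70 and Mt1 by 1.36, Hmox1 by 0.70, Sod2 by 0.83 and Sod3 by 0.48, and all 5 kept their calls, in a fit that called 39.7% of all genes. Nqo1 was then lower by -0.58 and Gclc by -0.29, and both passed. Gpx3 was at 0.17 (adjusted p = 0.0504).

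**Figure D3:**
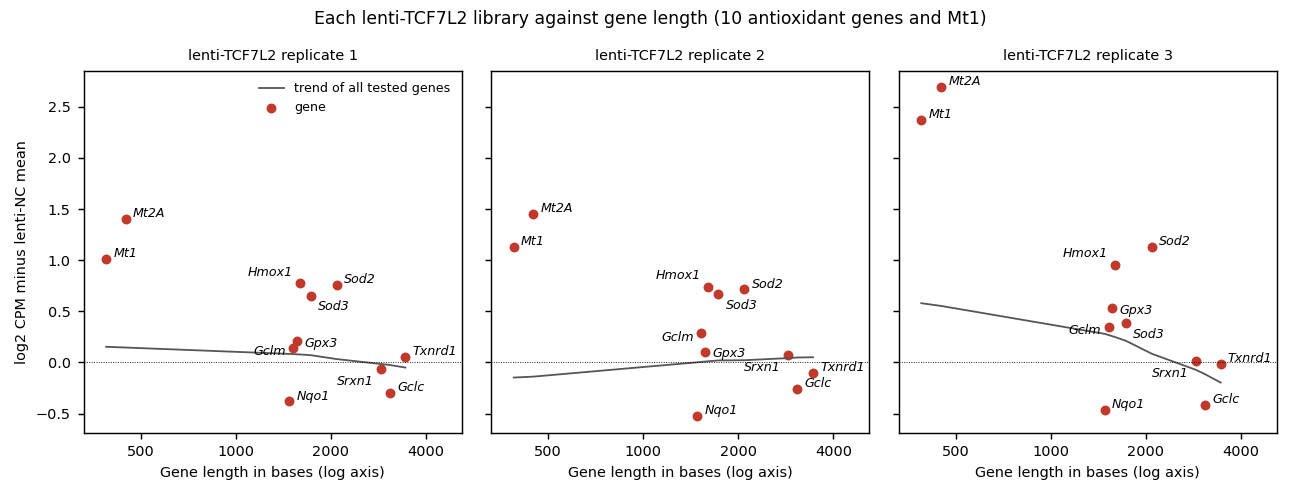
Log2 CPM of the 10 genes and Mt1 in each lenti-TCF7L2 library minus the lenti-NC mean (vertical axis) against gene length in bases (log axis), with the trend of all tested genes as a line. Mt2A lies at 1.41, 1.45 and 2.69 in the 3 panels while the trend at its length is 0.15, -0.14 and 0.55.

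Around these 10 genes, 8 pathway lists with 130 tested genes were examined; with lenti-TCF7L2, 38 rose and 17 fell, and the median difference was 0.17 (all genes 0.03). The called share was 42.3% over these lists, beside 31.8% of all tested genes (18% higher, 13.8% lower). For the other NRF2 targets (34.3%) and the metallothionein, zinc and copper genes (33.3%) this share was near that of all genes. It was lower for the NRF2 regulators (27.3%) and the other antioxidant enzymes (20.8%). These shares in either direction thus set none of these lists apart. The called share was above that of all genes for the iron and heme (61.5%), NF-kB target (90%) and glucocorticoid target (63.6%) lists. The same held for the list of NADPH oxidases and xanthine dehydrogenase (54.5%). Among 35 other NRF2 target genes, 10 rose, 2 fell and 23 did not pass, with a median of 0.24. The UDP-glucose dehydrogenase gene Ugdh rose by 0.80 (120 ± 4.41 to 209 ± 4.42 CPM, adjusted p = 7.41e-05) and the aldo-keto reductase gene Akr1b8 by 0.81. The epoxide hydrolase gene Ephx1, like Nqo1, fell (-0.83, adjusted p = 5.55e-04). Of 11 NRF2 regulators 1 rose and 2 fell. Maff, a small MAF partner, rose by 1.17 (adjusted p = 3.69e-04), whereas its relative Mafk fell (-0.51), as did the repressor gene Bach2 (-1.28, adjusted p = 0.0278), which ranged from 0.657 to 4.35 CPM over both groups and lost its call in 6 of 19 other settings, among them those without any single lenti-NC library (adjusted p up to 0.0887) or without lenti-TCF7L2 replicate 1 (0.0599). Nfe2l2 itself differed by 0.17 (adjusted p = 0.0566) and Keap1 by 0.19 (0.0626); these 2 were named after their values were seen.

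Among 24 other antioxidant enzymes 4 rose and 1 fell, with a median of 0.12. They included the glutaredoxin gene Glrx (1.06), the peroxidase gene Gpx7 (0.76) and the gene for selenoprotein P, listed as Sepp1 (0.47). Of 15 metallothionein, zinc and copper genes besides Mt2A, 3 rose and 2 fell, with a median of 0.03, equal to that of all genes at this precision. Mt1 (1.64) and the zinc importer gene Slc39a14 (0.44) rose and the copper pump gene Atp7b fell (-1.34). Mtf1, the zinc-sensing activator of metallothioneins, fell (-0.50, adjusted p = 0.0342) and was named after its value was seen. In the iron and heme list of 13 genes, 6 fell and 2 rose (61.5% called). The transferrin receptor gene Tfrc fell by 1.96, from 344 ± 18.9 to 88.2 ± 19.5 CPM (adjusted p = 6.48e-05), and Alas1, the first enzyme of heme synthesis, by 0.83. The heme-binding plasma protein gene Hpx rose by 1.55.

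Of 10 NF-kB target genes tested, 9 rose and none fell (90% called, median 0.62). Over all tested genes 31.8% were called, 18% higher and 13.8% lower. Bcl3 rose by 0.84, the inhibitor gene Nfkbia by 0.79 and the adhesion molecule gene Icam1 by 0.47. Sod2 is also a known NF-kB target. Of 11 glucocorticoid target genes 4 rose and 3 fell (63.6% called, median 0.17), among them Cebpd (1.12), Fkbp5 (0.57) and Ddit4 (0.51). Metallothionein genes are also known glucocorticoid targets. A part of NF-kB in the Sod2 difference, or of glucocorticoid signals in the metallothionein differences, was not tested. Of 11 genes of NADPH oxidases and xanthine dehydrogenase, sources of superoxide, 5 rose and 1 fell (54.5% called, median 0.43): Duox1 rose by 1.12 and Xdh by 0.78, and the oxidase subunit gene Ncf1 fell (-0.81). Some genes of the last group and of the NF-kB list are also expressed in the macrophage and endothelial cells whose markers rose with lenti-TCF7L2, and the part of those cells was not tested.

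With lenti-shTCF7L2, 6 of the 130 list genes rose and 7 fell in the 9-library fit, with a median of 0.03; this is 10% of them, beside 3.64% of all tested genes. The lower fibroblast, epicardial and cardiomyocyte markers given above stand beside these counts too. Called genes among the other NRF2 targets were the cystine importer gene Slc7a11 (1.23, adjusted p = 0.0208), the serine synthesis gene Phgdh (0.86, adjusted p = 0.00488) and the NADPH-producing enzyme gene Me1 (0.52), all higher. Slc7a11 went from 7.86 ± 1.75 to 18.5 ± 0.675 CPM, while its lenti-TCF7L2 difference was -0.14. Phgdh was called in all 21 settings; Slc7a11 and Me1 lost their calls in 7 of them. The called list genes that were lower included Sepp1 (-0.75), the iron exporter gene Slc40a1 (-0.97), the copper ferroxidase gene Cp (-0.61) and the zinc transporter gene Slc39a1 (-0.40). Also lower were the heme synthesis gene Fech (-0.37), Xdh (-0.96) and the NF-kB inhibitor gene Nfkbie (-0.50). The iron importer gene Slc11a2 (0.52) and the chemokine gene Cxcl1 (0.77) were higher. Fech lost its call in 8 settings, Nfkbie in 6, Cxcl1 in 5, Slc11a2, Slc39a1 and Xdh in 4 each, and Sepp1, Slc40a1 and Cp in none of 21. Each of these genes that lost calls did so when single lenti-NC or lenti-shTCF7L2 libraries were left out, Fech with the highest adjusted p (0.151 without lenti-NC replicate 3). Between lenti-TCF7L2 and lenti-shTCF7L2, 38 list genes were higher with lenti-TCF7L2 and 20 lower. That is 44.6% of the 130, beside 33.1% of all tested genes (18.4% higher, 14.7% lower). Sepp1 differed by 1.22 and Slc7a11 by -1.37.

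**Figure D4:**
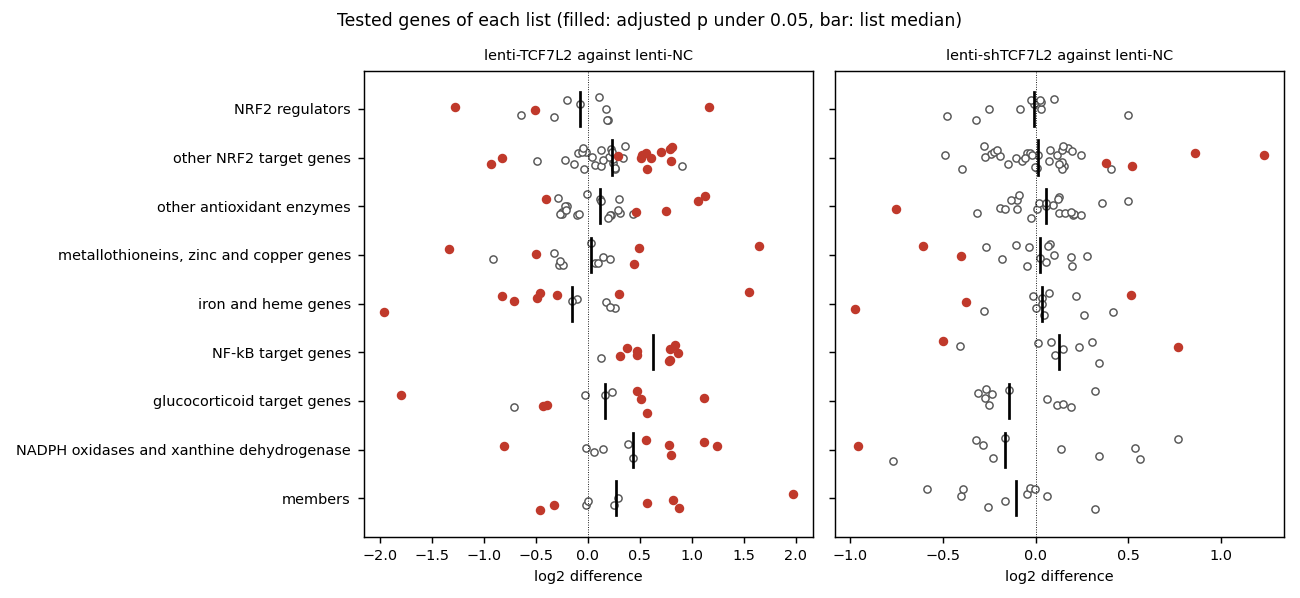
Fitted log2 difference (horizontal axis) of each tested gene of the 8 lists and of the 10 genes described here (bottom row), with lenti-TCF7L2 (left) and lenti-shTCF7L2 (right) against lenti-NC; filled points have an adjusted p under 0.05 and bars mark list medians. On the left 9 of 10 NF-kB target genes are filled and to the right of 0, and Tfrc is the leftmost point at -1.96; on the right 13 of 130 list genes are filled.

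The genes whose log2 CPM over the 9 libraries ran most closely with each member, among 10221 genes with a mean of at least 50 counts, are given as a description, since the libraries form 3 groups and share their depth and length trends. For Mt2A they were Arhgdib (Pearson r = 0.996), Phyhd1 (0.996) and Ifitm2 (0.993), and for Hmox1 Rundc3a (0.993), Vwa1 (0.991) and Adora2a (0.991). Sod2 ran closest with Tmem88 (0.992), Glrx (0.991) and Cnrip1 (0.990), Sod3 with Cers1 and Gdf1 (0.990 each; these 2 genes can lie on a shared transcript and may not be counted apart) and Plekhg5 (0.987), and Gpx3 with Clta (0.993), Snrpb (0.993) and Bnip3l (0.992). Nqo1 ran with Mtfp1 (0.971), Fhl1 (0.954) and Trim55 (0.951), of which Trim55 encodes a sarcomeric protein of striated muscle. Gclc was nearest to Cox15 (0.978), Cnksr3 (0.968) and Tgfbi (0.964), Gclm to Rad52 (0.940), Alkbh4 (0.921) and Utp23 (0.905), and Srxn1 to Adamts19 (0.944), Adck1 (0.914) and Wbp4 (0.907). Txnrd1, whose level varied least, had no neighbour above Dbr1 (0.837), followed by Azi2 (0.837) and Pdcl3 (0.810).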

How the data were processed

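RNA-seq of 9 libraries of infected newborn rat cardiomyocytes was analysed from the deposited tables, 1 per library. The authors deposited expected counts (estimated fragments per gene, not normalised), FPKM values and gene lengths, per the file headers. The tools named are HISAT2, Bowtie2, RSEM 1.3.1 and DESeq2 1.4.5 with build rn6, per the submitters' processing notes; their settings are not given in the sources used here. Expected counts were rounded to whole numbers, filtered with filterByExpr (2846 genes set aside, 11761 tested) and fitted in edgeR 4.0.16 (R 4.3.3) with TMM scaling, the quasi-likelihood test and Benjamini-Hochberg adjustment over all tested genes. All 9 libraries, 3 per group, shared 1 model, with group as its only term, and calls are adjusted p values under 0.05, from 2-sided tests. CPM uses TMM-scaled library sizes, and log2 CPM a prior count of 2.

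Alternatives were DESeq2 1.42.0, limma 3.58.1 on log2(FPKM + 1) or log2(FPKM + 0.1), for genes reaching a mean of 1 FPKM or for all genes, other scalings and filters (none, or 10 counts in 6 libraries), a replicate block, a fit of only the 6 libraries compared, each library left out, and a length adjustment (a lowess trend of span 0.3 on log2 length per library). FPKM differences are on the log2(value + pseudocount) scale. The 10 genes, 8 pathway lists and 7 marker lists were chosen with earlier results of these data known. Named list genes are up to 3 per list with the smallest adjusted p among those called with lenti-TCF7L2, any called with lenti-shTCF7L2, and for each of the 10 genes the 3 with the highest correlation; those outside the rule are marked. 1 list gene called with lenti-shTCF7L2 is counted but not reported by name here. Marker genes were summed in CPM. The typical variation between replicates was 14.9% (edgeR's biological coefficient of variation). Equal replicate numbers are not stated to pair libraries across groups, and the main model did not pair them. Promoters came from RefSeq (GRCr8) and are not on the files' build.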

Additional observations from a re-analysis of the deposited data

How the results depend on the processing

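In 21 other settings, Mt2A, Hmox1, Nqo1, Gclc, Sod2 and Sod3 kept their direction and their call with lenti-TCF7L2 in all 21. The median of the 10 genes with lenti-TCF7L2 was 0.15 with the length adjustment, 0.14 with it and without lenti-TCF7L2 replicate 3, and 0.16 to 0.34 when each library was left out in turn. All genes called with lenti-TCF7L2 were 3741, 2321 in the fit of 6 libraries, and 2430 to 5503 with each library left out. With lenti-shTCF7L2 the genes called among the 10 were 0, 1 by DESeq2, 5 in the fit of 6 libraries, 3 with the length adjustment, 5 with it and without lenti-TCF7L2 replicate 3, and 0 to 5 with each library left out. Called list genes were 13, 54 in the fit of 6 libraries, 26 with the length adjustment, 44 with it and without lenti-TCF7L2 replicate 3, and 4 to 38 with each library left out. All genes called with lenti-shTCF7L2 were 428, 651 by DESeq2, 244 with the replicate block, 3294 in the fit of 6 libraries, 991 with the length adjustment, 2611 with it and without lenti-TCF7L2 replicate 3, and 88 to 2056 with each library left out. Between lenti-TCF7L2 and lenti-shTCF7L2 all genes called went from 3890 to 5938 with the length adjustment and without lenti-TCF7L2 replicate 3. The cause of these shifts was not tested.

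Signs changed only for differences near 0 that passed in no setting. Txnrd1 with lenti-TCF7L2 was 0.036 with upper-quartile scaling, 0.028 in the 3 limma fits, 0.050 with the length adjustment and -0.069 to 0.013 with each library left out. Srxn1 with lenti-TCF7L2 was -0.013 with RLE scaling and with DESeq2, -0.0054 with the stricter count filter, -0.0019 with no filter, -0.0074 in the fit of 6 libraries, -0.0071 with the length adjustment without lenti-TCF7L2 replicate 3, and -0.071 to 0.072 with each library left out. Sod3 with lenti-shTCF7L2 was 0.017 with upper-quartile scaling, 0.030 in the 3 limma fits, 0.00075 with the replicate block, and -0.027 to 0.017 with each library left out. With each library left out, Nqo1 with lenti-shTCF7L2 was -0.11 to 0.016, Gclm with lenti-shTCF7L2 -0.039 to 0.17, and Txnrd1 between lenti-TCF7L2 and lenti-shTCF7L2 -0.037 to 0.045. The replicate block in edgeR changed no call among the 10 genes. It ended the calls of Bach2 with lenti-TCF7L2 and of Fech, Me1, Nfkbie and Slc7a11 with lenti-shTCF7L2 (adjusted p 0.0545 to 0.0878). Same-numbered libraries had correlations of deviations from -0.067 to 0.151, with 2 of 9 over 0.1. Differently numbered libraries were not compared in this way, so these values cannot decide whether the numbers pair libraries. With 3 libraries per group, Gclm with lenti-TCF7L2 was called in none of the 21 settings. Its lenti-NC libraries spread from 17.1 to 22.8 CPM, and a small change is neither shown nor excluded.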
